A study of Mus musculus with 5 samples.

Results

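The genes described here encode plasma proteins of the kind the liver secretes: carriers, protease inhibitors, clotting factors, complement components and apolipoproteins. They were chosen from a list of 40 symbols, put together with the values of these arrays known, so their levels and differences are a description and carry no test. A probe set naming the gene alone was found for 38 of the 40, out of 19938 genes measured in the same way. Gc and Serpina3k had none and are not analysed here. The mice were males of ddY, an outbred stock, aged 5 weeks and labelled healthy. They were given 2 oral doses 0.5 hours apart, and 4 hours after the last dose the gut was taken and RNA of part of it was put on Affymetrix Mouse Gene 1.0 ST arrays, 5 in all. The groups, with 1 array each, were LG21+Asp (Lactobacillus gasseri OLL2716, then aspirin), Tep+Asp (teprenone, a drug that protects the gastric mucosa, then aspirin), GA+Asp (gum arabic, then aspirin), LG21+GA (the strain, then gum arabic) and GA+GA (gum arabic at both doses, the control). Values are given on the log2 scale, where a difference of 1 is 2-fold. With 1 array per group no difference could be set against the spread between mice, and the labels do not give the number of mice behind an array.

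Most plasma proteins other than immunoglobulins are made by hepatocytes and released into blood. Albumin keeps water in the vessels and carries fatty acids and drugs, fibrinogen and prothrombin form clots, serpins and inter-alpha-trypsin inhibitors restrain proteases, complement attacks microbes, and apolipoproteins carry lipid. Their genes are switched on in liver by a small set of factors, among them HNF4, the FOXA proteins and C/EBP. A few are also transcribed elsewhere: enterocytes make the apolipoproteins A-I and B for chylomicrons, and transthyretin is made in the choroid plexus and in endocrine cells of the pancreas.

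Promoters of the members whose levels frame the results are shown first. They are the 100 bases before the start of each gene, from RefSeq (build GRCm38.p6), written 5′ to 3′ on the gene's own strand. Capitals mark matches on either strand to TTGCNNAA, letters common to elements of C/EBP, where N is any base. Alb and Fgb are members with large differences, Serpina1c and Serpina1d are near-identical neighbours with unequal ones, and Apoa1 is the member that kept its level on all arrays.
Alb (chr5:90460770-90460869, plus strand): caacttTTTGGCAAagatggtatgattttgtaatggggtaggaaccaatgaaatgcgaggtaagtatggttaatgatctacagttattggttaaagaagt
Serpina1c (chr12:103904951-103905050, minus strand): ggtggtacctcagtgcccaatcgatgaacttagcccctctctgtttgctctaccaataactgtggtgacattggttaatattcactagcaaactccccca
Serpina1d (chr12:103773634-103773733, minus strand): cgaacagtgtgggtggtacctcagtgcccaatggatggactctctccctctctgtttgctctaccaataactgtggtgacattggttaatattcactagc
Fgb (chr3:83049864-83049963, minus strand): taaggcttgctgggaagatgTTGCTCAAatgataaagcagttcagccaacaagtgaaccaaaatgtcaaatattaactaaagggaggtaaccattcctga
Apoa1 (chr9:46228530-46228629, plus strand): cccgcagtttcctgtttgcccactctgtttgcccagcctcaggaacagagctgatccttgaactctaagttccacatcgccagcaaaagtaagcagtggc
RefSeq windows were found for 30 of the 38 measured members, 33 windows in all. The letters stood on either strand in the 250 bases before the start of 12 of the 30 genes, namely Alb, Ahsg, Hpx, Rbp4, Serpina1d, Itih2, Fga, Fgb, F9, C9, Apoa2 and Apob. That is 36.4% of the members' windows, against 9.56% of all 32851 windows. The printed windows of Serpina1c and Serpina1d were identical at 83 of 89 aligned bases (93.3%, without gaps). A match of letters is a description and not a binding site. Of the 12 genes with the letters, 11 were at least 2-fold lower in GA+Asp than in GA+GA, as were 9 of the 18 with a window and no match and 0.517% of all genes. The members were chosen on these values, so nothing is read from the tally.

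Array medians over all probe sets lay between 6.95 and 6.98, and the table ran from 1.32 to 13.87. No detection calls were in the table. Xist, transcribed from the inactive X chromosome of female cells, stood between 4.88 and 4.91, and no fold is given where a value lies below it. The 95th percentile of 1027 olfactory receptor genes lay between 6.26 and 6.34, and 12 of the 38 members were below it in GA+Asp, against 2 in GA+GA. The 12 were Hp, Orm1, Serpina1c, Serpina1d, Pzp, Fga, Fgg, F9, Kng1, C8a, C9 and Apoh, and folds against their GA+Asp values rest on signal at the level of these receptors. The tissue is labelled gut. The 8 gastric epithelial markers stood between 11.66 and 13.55 on every array, and the 13 enterocyte markers ran from 4.65 (Sis) to 11.85 (Anpep), with a median between 7.45 and 7.57 on each array.

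Alb, which encodes serum albumin (probe set 10523062), set the pattern with which the others were compared. It stood at 11.80 in LG21+Asp, 10.41 in Tep+Asp, 7.43 in GA+Asp, 12.37 in LG21+GA and 12.69 in GA+GA. The control was thus highest and aspirin alone lowest, with teprenone and then LG21 before aspirin in between. GA+Asp lay 38.1-fold below GA+GA, Tep+Asp 4.84-fold, LG21+Asp 1.84-fold and LG21+GA 1.24-fold. In the control Alb lay above 99.8% of genes, and in GA+Asp above 50.7%.

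The order of the arrays was compared over the 10 pairs that 5 arrays form. Of the 37 other members measured, 29 had all 10 pairs in the order of Alb. With Alb that is 30 of 38, against 0.772% of all genes (154 of 19938). At least 8 pairs matched in 36 members, against 4.12% of all genes. Exact ties are frequent in the table: 77.7% of genes had the same value on some pair of arrays, and such a pair counts as no match. When values within 0.1 of each other were taken as ties, 21 members kept the full order, and the share of all genes was not counted under that rule. The 3 aspirin arrays all lay below both arrays without aspirin in 35 members, against 3.45% of all genes. Apoa1 alone had the opposite arrangement, which 5.45% of all genes showed. A span of at least 2-fold between the highest and the lowest array was seen in 27 members, against 0.813% of all genes. Of these 27 members, 25 had the full order of Alb, as did 83 of all 162 genes with such a span, members included. Among the 11 members with a narrower span, 5 had it. GA+GA was strictly highest in 37 members (11.7% of all genes), and GA+Asp strictly lowest in 30 (18.0%).

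**Figure D1:**
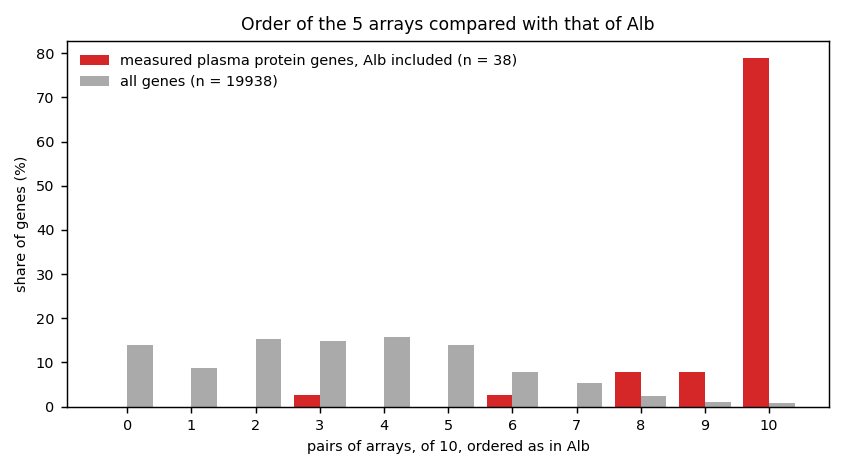
Share of genes (vertical axis, %) by the number of the 10 pairs of arrays ordered as in Alb (horizontal axis), for the 38 measured plasma protein genes (red bars, Alb included) and all 19938 genes (grey bars). At 10 pairs stand 78.9% of the plasma protein genes and 0.772% of all genes.

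Among the carrier and transport proteins, 7 of 10 had the full order of Alb. Ahsg, which encodes fetuin-A, an inhibitor of calcification, stood at 9.49 in LG21+Asp, 8.64 in Tep+Asp, 8.05 in GA+Asp, 10.51 in LG21+GA and 10.89 in GA+GA. Hpx, the haem scavenger hemopexin, stood at 7.93 in LG21+Asp, 7.31 in Tep+Asp, 6.82 in GA+Asp, 8.56 in LG21+GA and 9.42 in GA+GA. In both genes each aspirin array lay more than 2-fold below the control. Trf (transferrin, the iron carrier) stood at 9.63 in LG21+Asp, 9.37 in Tep+Asp, 9.03 in GA+Asp, 10.25 in LG21+GA and 10.86 in GA+GA. Rbp4, the retinol carrier, stood at 8.77 in LG21+Asp, 8.36 in Tep+Asp, 8.13 in GA+Asp, 9.20 in LG21+GA and 10.03 in GA+GA. Hp, which encodes the haemoglobin binder haptoglobin, stood at 7.11 in LG21+Asp, 6.59 in Tep+Asp, 6.15 in GA+Asp, 7.37 in LG21+GA and 8.04 in GA+GA. Orm1, an acute phase carrier of drugs, stood at 6.21 in LG21+Asp, 5.76 in Tep+Asp, 5.71 in GA+Asp, 6.33 in LG21+GA and 7.15 in GA+GA. In Orm1 the Tep+Asp and GA+Asp arrays were nearly level, and both lay under the 95th percentile of olfactory receptors. Because tissue was measured in bulk, fewer cells of a type and less RNA per cell cannot be told apart for any of these genes.

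Among the protease inhibitors, 9 of 10 had the full order of Alb. Serpina1c, of the alpha-1-antitrypsin cluster, stood at 8.11 in LG21+Asp, 6.58 in Tep+Asp, 3.91 in GA+Asp, 9.39 in LG21+GA and 10.31 in GA+GA. Its GA+Asp value lay below Xist, so no fold is given against it. Tep+Asp was 13.2-fold and LG21+Asp 4.57-fold below GA+GA. Serpina1d, its neighbour in the cluster, stood at 5.34 in LG21+Asp, 5.33 in Tep+Asp, 4.94 in GA+Asp, 5.39 in LG21+GA and 6.20 in GA+GA. Both genes had the order of Alb. The GA+Asp value of Serpina1d was also at about the level of Xist, so no span is given for either. A pair of probe sets that names all 5 genes from Serpina1a to Serpina1e stood at 5.74 and 6.82 in GA+Asp, against 10.68 and 11.43 in GA+GA. Members of this family are near-identical in sequence, so their signals cannot be assigned to single genes with certainty.

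Pzp, a broad protease trap of the alpha-2-macroglobulin family, stood at 7.87 in LG21+Asp, 6.81 in Tep+Asp, 5.80 in GA+Asp, 9.17 in LG21+GA and 9.81 in GA+GA. By these values it was 16.2-fold lower in GA+Asp, where it lay under the 95th percentile of olfactory receptors, than in GA+GA. Ambp, the precursor of alpha-1-microglobulin and bikunin, stood at 7.56 in LG21+Asp, 7.04 in Tep+Asp, 6.63 in GA+Asp, 8.22 in LG21+GA and 8.85 in GA+GA. Itih4, a heavy chain relative of the inter-alpha-trypsin inhibitors, stood at 7.43 in LG21+Asp, 6.87 in Tep+Asp, 6.52 in GA+Asp, 7.96 in LG21+GA and 8.56 in GA+GA. The other heavy chain genes had the same direction and narrower spans. Itih1 ranged over 0.55, Itih2 over 0.70 and Itih3 over 0.96, and in Itih3 the Tep+Asp array (6.67) was just below GA+Asp (6.74). Serpinc1, which encodes antithrombin, stood at 7.12 in LG21+Asp, 6.76 in Tep+Asp, 6.67 in GA+Asp, 7.51 in LG21+GA and 8.30 in GA+GA. Serpinf2, the plasmin inhibitor alpha-2-antiplasmin, stood at 7.63 in LG21+Asp, 7.48 in Tep+Asp, 7.28 in GA+Asp, 7.83 in LG21+GA and 8.30 in GA+GA. In both, all 3 aspirin arrays lay below LG21+GA.

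All 7 coagulation and fibrinolysis genes had the full order of Alb. The fibrinogen chains differed in size. Fgg stood at 7.54 in LG21+Asp, 6.44 in Tep+Asp, 5.77 in GA+Asp, 8.31 in LG21+GA and 9.29 in GA+GA. Fgb stood at 7.84 in LG21+Asp, 6.82 in Tep+Asp, 6.30 in GA+Asp, 8.62 in LG21+GA and 9.32 in GA+GA. Fga stood at 6.74 in LG21+Asp, 6.29 in Tep+Asp, 5.86 in GA+Asp, 7.09 in LG21+GA and 7.20 in GA+GA. GA+Asp was 11.5-fold below GA+GA for Fgg, 8.09-fold for Fgb and 2.52-fold for Fga, with the GA+Asp values of Fgg and Fga under the 95th percentile of olfactory receptors. Fga was the only member with more than 1 probe set naming it alone, and its second one, at 5.95 in GA+Asp and 5.99 in GA+GA, differed by -0.04. The mean of both gave -0.68 in place of -1.33.

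Kng1, the kininogen that releases bradykinin, stood at 7.42 in LG21+Asp, 6.37 in Tep+Asp, 5.79 in GA+Asp, 8.40 in LG21+GA and 9.04 in GA+GA. Plg, the plasmin precursor, stood at 7.27 in LG21+Asp, 6.55 in Tep+Asp, 6.31 in GA+Asp, 7.76 in LG21+GA and 8.47 in GA+GA. F2, which encodes prothrombin, stood at 7.29 in LG21+Asp, 7.003 in Tep+Asp, 6.88 in GA+Asp, 7.70 in LG21+GA and 8.31 in GA+GA. The Tep+Asp value of F2 was only 0.13 above that of GA+Asp. F9, clotting factor IX, was above Xist in the control array only, at 5.25, and stood between 3.49 and 4.31 on the other 4, so no fold is given.

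Apart from C9, the complement genes and Vtn spanned less than 2-fold. C9, the pore-forming component of the membrane attack complex, stood at 6.10 in LG21+Asp, 5.63 in Tep+Asp, 5.13 in GA+Asp, 6.77 in LG21+GA and 7.97 in GA+GA. It was 2.31-fold lower in LG21+GA than in GA+GA, and the control stood well apart from the other arrays. C8a and C8b, chains of the component that anchors C9, ranged over 0.61 and 0.72. In C8a LG21+Asp and LG21+GA were equal at 6.44, and in C8b Tep+Asp and GA+Asp both stood at 7.10. Cfb, factor B of the alternative pathway, which many tissues make, stood at 7.23 in LG21+Asp, 7.16 in Tep+Asp, 7.03 in GA+Asp, 7.43 in LG21+GA and 7.72 in GA+GA. Vtn, which encodes the adhesion and complement regulator vitronectin, stood at 9.09 in LG21+Asp, 9.07 in Tep+Asp, 8.95 in GA+Asp, 9.41 in LG21+GA and 9.75 in GA+GA. Cfb and Vtn had the order of Alb within spans of 0.70 and 0.80.

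Apolipoproteins divided by size of difference. Apoa2, of high density lipoprotein, stood at 8.55 in LG21+Asp, 7.67 in Tep+Asp, 7.15 in GA+Asp, 9.45 in LG21+GA and 10.13 in GA+GA. Apoc3, an inhibitor of triglyceride clearance, stood at 8.37 in LG21+Asp, 7.65 in Tep+Asp, 7.02 in GA+Asp, 9.04 in LG21+GA and 9.76 in GA+GA. Apoh, the phospholipid binder beta-2-glycoprotein I, stood at 7.33 in LG21+Asp, 6.42 in Tep+Asp, 5.95 in GA+Asp, 8.18 in LG21+GA and 9.001 in GA+GA. In these 3 genes GA+Asp lay 7.93-fold, 6.66-fold and 8.28-fold below GA+GA, with Apoh under the 95th percentile of olfactory receptors in GA+Asp. Apob, the scaffold of chylomicrons and very low density lipoprotein, stood at 8.72 in LG21+Asp, 8.43 in Tep+Asp, 8.52 in GA+Asp, 9.15 in LG21+GA and 9.55 in GA+GA. Its Tep+Asp value was the lowest, where Alb had GA+Asp lowest. Apoc4, a minor lipoprotein component, ranged over 0.68 in the order of Alb. Apoa1, the main protein of high density lipoprotein (probe set 10585005), stood at 12.71 in LG21+Asp, 12.69 in Tep+Asp, 12.68 in GA+Asp, 12.68 in LG21+GA and 12.65 in GA+GA. It ranged over 0.06, with the control array lowest.

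**Figure D2:**
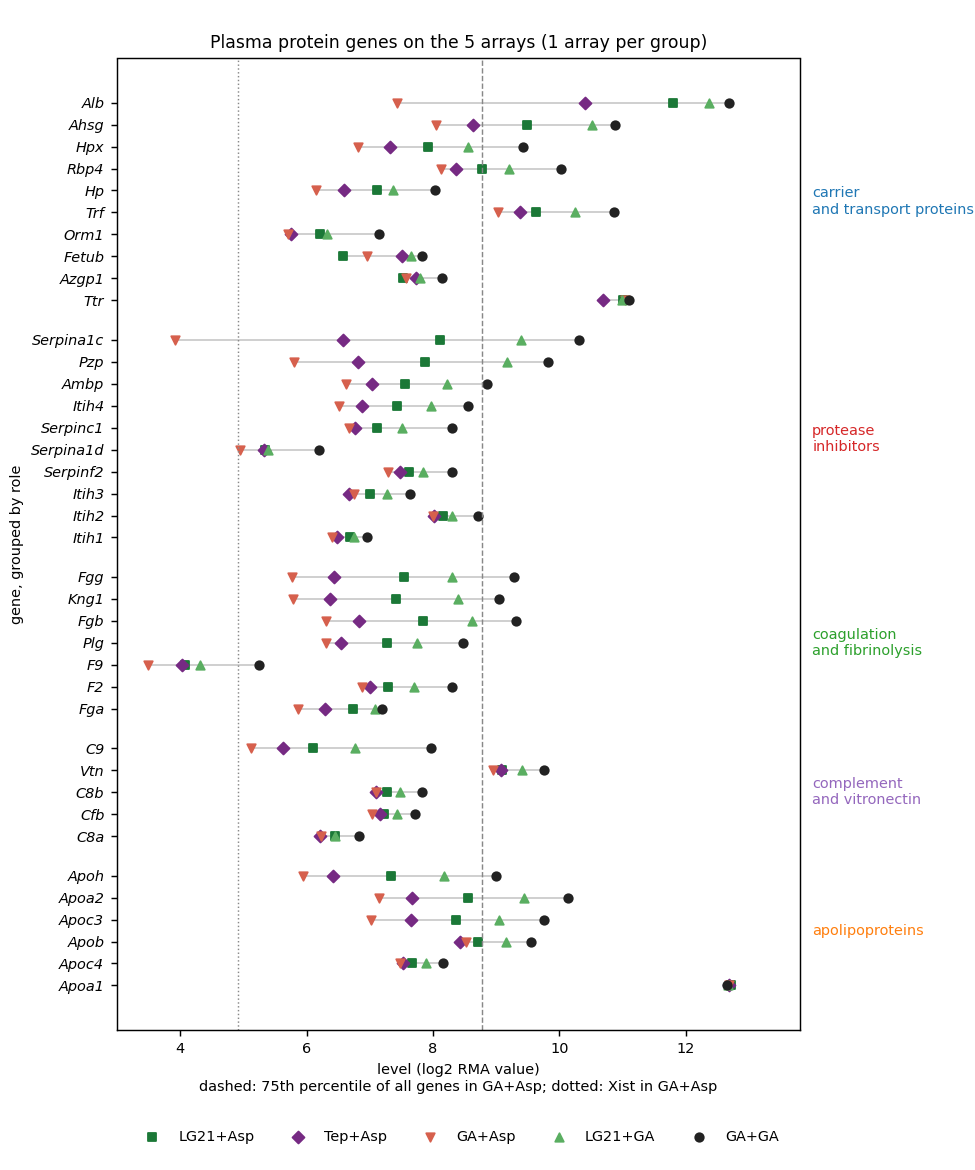
Level of each of the 38 genes (horizontal axis, log2 RMA value) on the 5 arrays, 1 marker per array, grouped by role on the vertical axis and sorted within a role by the difference of GA+Asp from GA+GA. Black circles (GA+GA) are at the right end of every row but that of Apoa1, whose 5 markers fall between 12.65 and 12.71.

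For aspirin alone, GA+Asp was compared with GA+GA, and plasma protein genes were lower almost throughout. Of 38 members 26 were at least 2-fold lower and 0 higher, where the shares of all genes were 0.517% and 0.015%. The median difference was -1.69 for members and 0.00 for all genes. The 7 members at least 8-fold lower were Serpina1c, Alb, Pzp, Fgg, Kng1, Apoh and Fgb, from 4 of the 5 roles, and all of these but Alb and Fgb were under the 95th percentile of olfactory receptors in GA+Asp. All 7 coagulation genes, 7 of 10 carriers, 7 of 10 protease inhibitors, 4 of 6 apolipoproteins and 1 of 5 complement genes passed 2-fold, with Serpina1c and F9 counted by their values although these lie below Xist in GA+Asp. The threshold fell among close values, with Serpinf2 (-1.02) and Apob (-1.03) just past it and Itih3 (-0.89) and Fetub (-0.87) just short. The members were listed with this difference in view, so the counts describe the list and support nothing further.

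**Figure D3:**
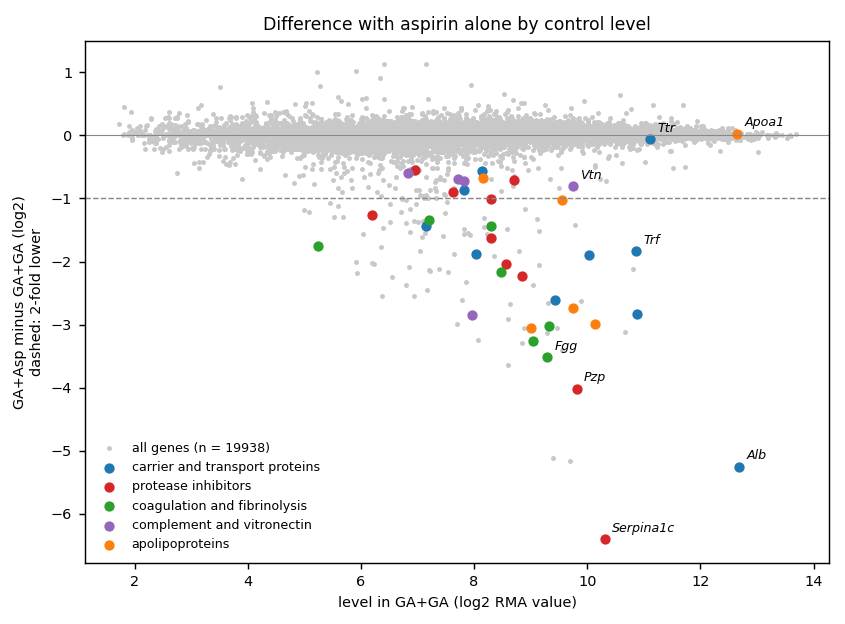
Difference between GA+Asp and GA+GA (vertical axis, log2) against the level in GA+GA (horizontal axis, log2 RMA value) for all 19938 genes in grey and the plasma protein genes coloured by role. Alb lies at -5.25, while Ttr (-0.06) and Apoa1 (0.03) lie on the band of all genes; the point of Serpina1c, below that of Alb, rests on a GA+Asp value below Xist.

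LG21 alone, LG21+GA set against GA+GA, had smaller differences of the same direction. Lower values were seen in 37 of 38 members and in 5941 of all 19938 genes. The median of members was -0.61, against 0.00 over all genes. C9 (-1.21) was the single member at least 2-fold lower, where 0.1% of all genes were, and 0 members were 2-fold higher, where 0.01% of all genes were. Fgg (-0.98) and Serpina1c (-0.92) were near that mark, and 21 members were at least 1.5-fold lower, where 0.492% of all genes were. Alb differed by -0.31 and Fga and Ttr by -0.11 each. This comparison and the one with aspirin alone share the GA+GA array.

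When LG21 preceded aspirin, 35 of 38 members were higher in LG21+Asp than in GA+Asp, as were 7690 of all 19938 genes. The median was 0.59, against 0.00 over all genes, and 11 members were at least 2-fold higher, where 0.13% of all genes were. At least 2-fold lower were 0 members, and 0.145% of all genes. Alb was higher by 20.7-fold. Serpina1c, at 8.11 in LG21+Asp and below Xist in GA+Asp, is counted with no fold. Pzp was 4.20-fold higher, Fgg 3.41-fold, Kng1 3.10-fold, Fgb 2.90-fold, Ahsg 2.71-fold, Apoa2 2.65-fold, Apoh 2.60-fold, Apoc3 2.55-fold and Hpx 2.16-fold, with the GA+Asp signal of Pzp, Fgg, Kng1 and Apoh at the level of olfactory receptors. Fetub (-0.39), Azgp1 (-0.05) and Ttr (-0.03) were lower. The GA+Asp array also enters aspirin alone with the opposite sign. Against the control, 20 members were at least 2-fold lower in LG21+Asp, where 0.512% of all genes were, and 0 were higher, as for all genes (0.0%).

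When teprenone preceded aspirin, 33 of 38 members were higher in Tep+Asp than in GA+Asp, as were 6896 of all 19938 genes. The median of members was 0.35 (0.00 over all genes). Only Alb (7.87-fold), Serpina1c (6.58 in Tep+Asp, against 3.91 in GA+Asp) and Pzp (2.01-fold) were at least 2-fold higher, where 0.0802% of all genes were. Under quantile normalization Pzp differed by 0.997 and 2 members passed. At least 2-fold lower were 0 members, and 0.0201% of all genes. Fgg (0.67), Apoc3 (0.63), Ahsg (0.58) and Kng1 (0.58) came next among the higher ones. The 5 lower members were Ttr (-0.35), Apob (-0.09), Itih3 (-0.07), C8a (-0.01) and C8b, whose values were equal to 2 decimals. Against the control 23 members were at least 2-fold lower in Tep+Asp, where 0.461% of all genes were, and 0 were higher, where 0.0251% were.

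Set directly against each other, LG21+Asp was above Tep+Asp in 36 of 38 members and in 7879 of all 19938 genes. The median of members was 0.39, against 0.00 over all genes. Serpina1c (2.89-fold), Alb (2.63-fold), Fgg (2.14-fold), Pzp (2.09-fold), Kng1 (2.07-fold) and Fgb (2.02-fold) were at least 2-fold higher, where 0.0552% of all genes were. Fetub (-0.95) and Azgp1 (-0.20) had the opposite sign, and 0 members were at least 2-fold lower, where 0.231% of all genes were. For aspirin in mice given LG21, LG21+Asp was set against LG21+GA, and neither array enters aspirin alone. The values of both were known when the members were listed, so the comparison is no independent repeat. Pzp (-1.30), Serpina1c (-1.28), Fetub (-1.08) and Ahsg (-1.02) were at least 2-fold lower there, where 0.201% of all genes were, and 0 were higher, where 0.00502% were. The median of members was -0.41, with 35 of 38 below 0, where 6704 of all 19938 genes were. Alb differed by -0.57.

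The other 3 arrays did not divide the gap between GA+Asp and GA+GA alike in every gene. For the 25 members that spanned at least 2-fold with GA+Asp lowest and GA+GA highest, each array's value was placed between these ends on the linear scale, with GA+Asp at 0% and GA+GA at 100%. Without Alb, the median place was 23.4% for LG21+Asp, 6.72% for Tep+Asp and 50.1% for LG21+GA over 24 genes. Without Serpina1c and F9 too, whose GA+Asp values lie below Xist, the medians over 22 genes were 24.03%, 6.72% and 50.1%. Alb was placed at 53.1%, 18.5% and 80.1% for the same arrays. Fga was placed above Alb for each of them, at 55.1%, 22.5% and 87.9%, with a control level of 7.20. The second probe set of Fga, which differed by -0.04 between GA+Asp and GA+GA, was not placed. For LG21+Asp and LG21+GA the genes other than Fga were all placed below Alb. On the log2 scale Alb had the highest place of the 25 genes for all 3 arrays. At the low end for LG21+Asp stood C9 (15.6%) and Serpinc1 (17.3%).

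**Figure D4:**
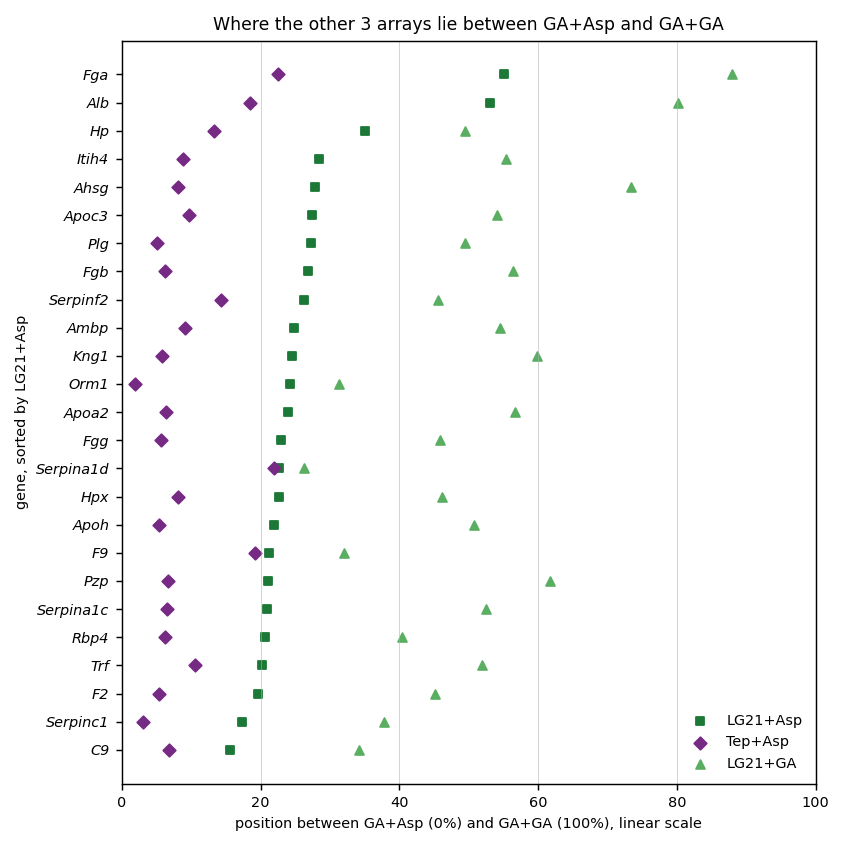
Place of LG21+Asp, Tep+Asp and LG21+GA (1 marker each) between GA+Asp (0%) and GA+GA (100%) on the linear scale (horizontal axis), for the 25 genes that span at least 2-fold between these arrays (vertical axis, sorted by LG21+Asp), Serpina1c and F9 included, whose GA+Asp values lie below Xist. By their LG21+Asp markers, Fga and Alb lie to the right of the other genes, whose LG21+Asp values fall between 15.6% and 35.1%. Fga is shown by the higher of its 2 probe sets.

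A high level in GA+Asp was kept by 3 members, by the rule of a level at or above the 75th percentile of all genes on that array (8.78) and less than 2-fold below the highest other array. They were Apoa1 (12.68), Ttr (11.04) and Vtn (8.95). Of all genes 25.0% met the same rule. Ttr, which encodes the thyroid hormone and retinol carrier transthyretin (probe set 10454192), stood at 11.01 in LG21+Asp, 10.69 in Tep+Asp, 11.04 in GA+Asp, 10.997 in LG21+GA and 11.11 in GA+GA. Its lowest array was Tep+Asp, and only 6 of its 10 pairs were ordered as in Alb, against 3 for Apoa1. Apoa1 was above 99.8% of genes in GA+Asp, and the highest value in the whole table was 13.87. Vtn had the full order of Alb within its span of 0.80. Trf (9.03 in GA+Asp) met the level but was 1.83 below the control, and Apob (8.52) was just under the level. With the median of all genes as the level, 6 members met the rule, and the share of all genes was not counted at that level.

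Besides Apoa1 and Ttr, 6 members left the order of Alb in 1 or 2 pairs. Apob, Itih3, C8a and C8b did so with Tep+Asp at or just under GA+Asp, by at most 0.09. Fetub, a liver secreted relative of fetuin-A, stood at 6.57 in LG21+Asp, 7.52 in Tep+Asp, 6.96 in GA+Asp, 7.65 in LG21+GA and 7.83 in GA+GA. Azgp1, a lipid mobilising glycoprotein also made by epithelia, stood at 7.52 in LG21+Asp, 7.72 in Tep+Asp, 7.58 in GA+Asp, 7.79 in LG21+GA and 8.14 in GA+GA. Both were lowest in LG21+Asp and were highest of the aspirin arrays in Tep+Asp, which no other member was. The 9 markers of squamous epithelium, all above Xist on every array, had the same order among the aspirin arrays: their summed linear level was 1987 in LG21+Asp, 7138 in Tep+Asp and 4131 in GA+Asp, against 4984 in LG21+GA and 4877 in GA+GA. Of the 9, 6 spanned at least 2-fold, with Krt10, Krt1 and Lor the highest of the list in mean level. The part of squamous epithelium in the values of Fetub and Azgp1 was not tested.

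A further list of plasma protein genes held 70 symbols, of which 60 were measured. With aspirin alone 12 were at least 2-fold lower and 0 higher, where 0.517% and 0.015% of all genes were. The median was -0.29. The full order of Alb was seen in 16, against 0.772% of all genes. Hrg, the histidine-rich glycoprotein of plasma, had the widest span. It stood at 6.89 in LG21+Asp, 5.99 in Tep+Asp, 5.55 in GA+Asp, 7.70 in LG21+GA and 8.85 in GA+GA. Pon1, a paraoxonase carried on high density lipoprotein, stood at 6.07 in LG21+Asp, 5.34 in Tep+Asp, 5.17 in GA+Asp, 7.06 in LG21+GA and 7.78 in GA+GA. Mug1, a murinoglobulin related to Pzp, stood at 9.26 in LG21+Asp, 8.81 in Tep+Asp, 8.69 in GA+Asp, 9.85 in LG21+GA and 10.81 in GA+GA. The other 9 at least 2-fold apart were Saa4, Apoc1, Lcat, Serpind1, Crp, Serpina6, Hc, Apof and F5, with spans from 1.08 to 2.11. In GA+Asp, Hrg, Pon1, Saa4, Crp, Serpina6, Hc, Apof and F5 lay under the 95th percentile of olfactory receptors, so low signal limits their differences. The highest in mean level were Selenop, Apoe and Habp2, which spanned 0.05, 0.50 and 0.11.

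Of 15 liver transcription factors listed, genes that switch on the hepatocyte programme, 13 were measured. Among these 0 spanned 2-fold and 0 had the full order of Alb, against 0.813% and 0.772% of all genes. For so short a list counts of 0 are near these shares, so nothing is read from them. Nr1i3 had 9 of its 10 pairs ordered as in Alb, within a span of 0.47. The highest in mean level were Foxa1, Hnf4a and Foxa3. Hnf4a stood at 10.46 in LG21+Asp, 10.44 in Tep+Asp, 10.45 in GA+Asp, 10.56 in LG21+GA and 10.46 in GA+GA. Foxa1 stood at 11.23 in LG21+Asp, 11.15 in Tep+Asp, 11.17 in GA+Asp, 11.08 in LG21+GA and 11.09 in GA+GA. Both are expressed in gastric and intestinal epithelium as well as liver.

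Most hepatocyte genes whose products are not secreted had the course of the plasma proteins. Of 19 measured, 17 spanned at least 2-fold and 14 had the full order of Alb, against 0.813% and 0.772% of all genes. With aspirin alone 17 were at least 2-fold lower (median -2.46), where 0.517% of all genes were. Fah, the highest of the list in mean level, was nearly level, at 10.04 in GA+Asp and 10.08 in GA+GA. Besides Fah, the genes Cyp2f2, Cyp2c29, Slco1b2 and Gys2 left the order of Alb. The median level of these 19 genes in GA+Asp was 5.70, under the 95th percentile of olfactory receptors, and 3 of them lay below Xist on some array. Low signal therefore limits their differences. The summed linear level of the 19 genes was 42.8% of GA+GA in LG21+Asp, 30.1% in Tep+Asp, 24.2% in GA+Asp and 62.8% in LG21+GA. For the 38 plasma protein genes the shares were 59.9%, 45.7%, 40.3% and 77.2%, sums in which Apoa1 weighs heavily. For the 7 coagulation genes they were 38.6%, 22.6%, 17.2% and 61.5%. Among genes on neither plasma protein list, 10 were picked by the full order of Alb and the widest span over the 5 arrays. They were Mup3, Cyp3a11, Tdo2, Cps1, Ugt2b36, Mat1a, Cyp2e1, Cyp3a25, Bhmt and Cyp4a12a. Of these, Cyp3a11, Tdo2, Cps1, Mat1a, Cyp2e1 and Bhmt are on the hepatocyte list already counted. The GA+Asp values of Mup3, Cyp3a11, Ugt2b36 and Cyp4a12a lay below Xist, so no spans are given. Having been picked by that order, the 10 are a description only. Mup3, which encodes a major urinary protein secreted by liver, stood at 7.51 in LG21+Asp, 5.90 in Tep+Asp, 4.53 in GA+Asp, 8.65 in LG21+GA and 9.69 in GA+GA.

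Marker lists of 7 other cell types held 0 genes in the full order of Alb and 0 that spanned 2-fold, where 0.772% and 0.813% of all genes did. Squamous epithelium, with 6 of 9 genes spanning 2-fold, is described above and is not among the 7. The 7 lists held 13 enterocyte, 9 pancreatic acinar, 7 adipocyte, 8 macrophage, 7 neutrophil, 2 erythroid and 8 gastric epithelial genes. Their widest spans were 0.41, 0.54, 0.42, 0.33, 0.29, 0.21 and 0.09 in that order. The gastric epithelial genes, at 11.66 to 13.55, lay near the highest value of the table (13.87). For lists this short, counts of 0 are near the shares of all genes. The adipocyte marker Adipoq and the enterocyte marker Mttp each had 9 of 10 pairs ordered as in Alb. Pancreatic acinar markers, at 6.13 to 8.79, summed to between 108% and 112% of GA+GA on the other arrays. Cel, the highest of them, weighs most in these sums, at 8.25 in GA+GA and 8.61 to 8.79 on the other arrays. The next widest span of the list was 0.12 (Cela3b).

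**Figure D5:**
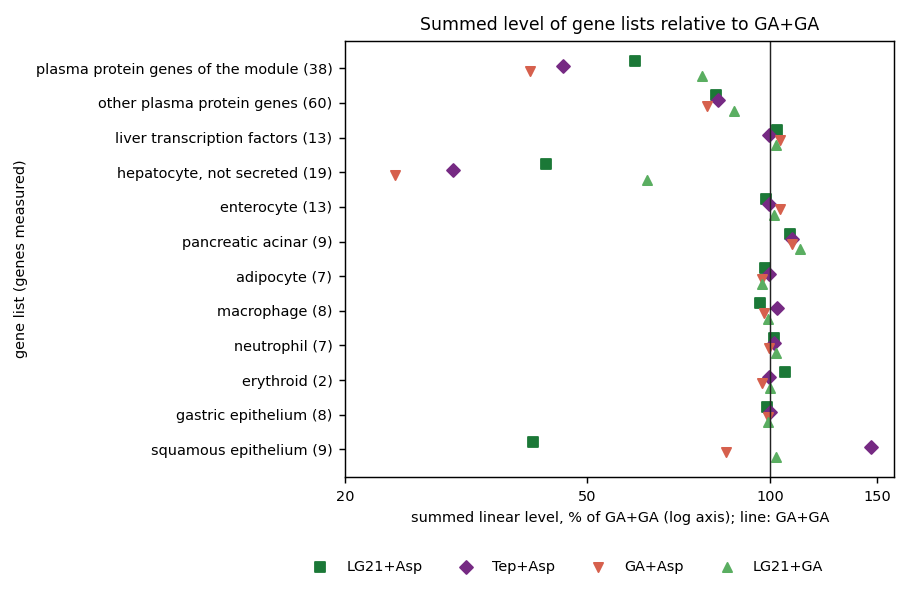
Summed linear level of each gene list as a percentage of GA+GA (horizontal axis, log scale, with GA+GA as the line at 100), 1 marker for each of the other 4 arrays, with the number of genes measured in brackets. Plasma protein genes and hepatocyte genes lie to the left of the line on all 4 arrays, squamous epithelium spreads to both sides, and lists of the other cell types lie near it.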

How the data were processed

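RNA from mouse gut was hybridised to 5 arrays, 1 per group. The deposited log2 values were made by the authors with RMA (background correction, normalization between arrays, summary per probe set) in Expression Console, per the labels, while the design text names the Exon Array Computational Tool. The log2 scale was read from the values. For software versions and the genome build, the sources used here name none. Probe sets were named by the platform annotation: 21789 of 35557 had 1 gene symbol, 1621 several and 12147 none. The probe set with the highest mean over the 5 arrays stood for a gene. No filter on low values was applied, and 22 of the 38 members had a mean above the median of all genes (7.41). Differences were taken between arrays and counted at 2-fold, with no test, p-value or standard error, since the number of arrays limits the precision. Members and lists were chosen with earlier results of these data known. All members are named. Other plasma protein genes and transcription factors are named if they spanned 2-fold or were among the 3 highest in mean level, and further genes by the width of their span. Counting was tested on simulated data with normal noise and no tied values, so the handling of ties was not tested. Promoters came from RefSeq (GRCm38.p6). Alternatives were the mean of a gene's probe sets, quantile normalization and cyclic loess (limma 3.58.1, R 4.3.3, 3 iterations), thresholds of 1.5-fold and 3-fold, other levels for a high value, a tie tolerance of 0.1 and members above the median only. Python 3.11.15 and pandas 2.3.3 were used.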

Additional observations from a re-analysis of the deposited data

How the results depend on the processing

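Quantile normalization, cyclic loess and the mean of a gene's probe sets changed no count of members by over 1.5 times. No member at least 2-fold apart changed its direction in the 4 comparisons checked gene by gene. These alternatives had little room to change the results, so nothing is concluded from the stability. RMA had already normalized the values between arrays, with array medians between 6.95 and 6.98. Among members, the mean of probe sets could move only the values of Fga, since 37 had 1 probe set. Under cyclic loess Serpina1d left the order of Alb, and under quantile normalization Pzp (0.997) fell short of 2-fold with teprenone before aspirin, which left 2 members. The threshold mattered more. At 1.5-fold the number of members lower with LG21 alone was 21 (0.492% of all genes), higher with LG21 before aspirin 20 (0.316%), higher with teprenone before aspirin 5 (0.321%), higher in LG21+Asp than Tep+Asp 12 (0.176%), and lower with aspirin in LG21-treated mice 14 (0.481%). At 3-fold 6 members were lower in LG21+Asp than in GA+GA (0.171% of all genes) and 5 were higher with LG21 before aspirin (0.0602%). At that threshold 0 members passed for LG21 alone (0.00502%), LG21 against teprenone (0.00502%) and aspirin in LG21-treated mice (0.0802%). With only the 22 members above the median of all genes there are fewer to count: 16 were lower with aspirin alone (median -1.97), 15 in Tep+Asp (median -1.68), 13 in LG21+Asp and 0 in LG21+GA, each against GA+GA. In the same 22, 18 had the order of Alb and 20 had all aspirin arrays below the others. With the median of all genes as the level, 6 members kept a high level in GA+Asp. Shares of all genes were not counted for the members above the median or for this level. The mean of its probe sets brought Fga to -0.68 with aspirin alone, 0.49 with LG21 before aspirin and 0.20 with teprenone before aspirin. Leaving out members below Xist in GA+Asp, an alternative chosen after seeing the data, left the places between GA+Asp and GA+GA within 1.5 times. No paired analysis was possible because each group has 1 array. Low signal limits F9, Serpina1c and the other members near or below the olfactory receptor genes.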

Other observations

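Of 162 genes that spanned at least 2-fold over the 5 arrays, 83 had the full order of Alb. Among these were 25 plasma protein genes of the module, 9 of the other plasma protein list and 14 of the hepatocyte list, and 35 were on none of the 3 lists. Among the 12147 probe sets without a gene symbol, 727 spanned at least 2-fold, of which 29 had the order of Alb. The transcripts behind those 29 are not named here.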
